A study of Mus musculus with 7 samples.

Results

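The 10 genes described here lie in the distal stretch of an engineered deletion on mouse chromosome 4 or near its far end. They are Nphp4, Dffb, Lrrc47, Tprgl, Megf6, Prdm16 and Pank4, followed by Pex10, Rer1 and Morn1, which sit between Pank4 and Ski. They were chosen by name and position, with earlier results of these data known, out of 15531 genes listed as measured in the comparison of the genotypes, and all 10 are on that list. Gene expression was measured by RNA-seq in mouse embryonic fibroblasts (MEFs), primary cells grown from whole embryos without the head, taken at embryonic day 13.5 and studied at passage 4. The 4 Df/+Bl6 lines carry a 4.3 Mb deletion on the chromosome 4 of 129S5/SvEvBrd origin (129S5), opposite an intact C57BL/6J chromosome 4. The 3 +129/+Bl6 lines carry intact 129S5 and C57BL/6J copies. Both groups therefore came from crosses to C57BL/6J and share a C57BL/6J chromosome set. A strain difference inside a read was used to assign it to a copy. The Df/+Bl6 embryos came from chimeric males that carried the deletion (Df) and its reciprocal duplication (Dp). For the controls the paper names F1 +129/+Bl6 crosses.

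The deposited values are mean normalized counts over the lines of each genotype, given only for genes that the authors called different between the genotypes at a false discovery rate of 0.05. There are 3 such comparisons, one for both alleles together (the combined comparison), one for reads of the 129S5 allele and one for reads of the C57BL/6J allele. Below, a gene that "was called" passed that threshold, fold changes are the Df/+Bl6 mean over the +129/+Bl6 mean, and no value per line and hence no SD or depth can be given. The spread between lines entered only through the authors' call. A gene that was not called has no value here and cannot be said to be unchanged. The list of measured genes belongs to the combined comparison. Which genes were tested for each allele is not listed, so a gene without an allelic call may not have been tested for that allele. The 3 tables were normalized separately, so levels are compared only within a table.

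As background, Prdm16 is a zinc finger transcriptional regulator with a histone methyltransferase domain, known for driving the brown fat program and for its role in heart muscle and the palate. Nphp4 encodes nephrocystin-4 of the ciliary transition zone, the gate at the base of the cilium. Dffb is the caspase-activated DNase that cuts chromatin during apoptosis. Megf6 belongs to the proteins with multiple EGF-like domains, and Pank4 is a member of the pantothenate kinase family, whose active members start coenzyme A synthesis, although Pank4 itself lacks that kinase activity and acts as a phosphatase. Pex10 is a ubiquitin ligase of the peroxisome membrane, and Rer1 returns proteins from the Golgi to the endoplasmic reticulum. Ski, just past these genes, is a repressor of TGF beta signalling. The orthologous human band, 1p36, is deleted in a recurrent developmental syndrome.

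Of the 10 genes, 6 were called in the combined comparison, and all 6 were lower in Df/+Bl6: Nphp4, Lrrc47, Tprgl, Megf6, Prdm16 and Pank4. The other 4, Dffb, Pex10, Rer1 and Morn1, were in none of the 3 tables of called genes. Over all 15531 genes, 8.67% were called in the combined comparison, 3.54% as lower in Df/+Bl6. The log2 fold changes of the 6 ran from -1.73 to -0.91 with a median of -1.34, beside a median of -0.81 over the 550 genes called lower anywhere in the genome. In bulk RNA, less RNA per cell cannot be told apart from fewer cells that express a gene.

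Megf6 had the deepest fall of the 6. Its mean was 2092 normalized counts in +129/+Bl6 and 633 in Df/+Bl6, a log2 fold change of -1.73, so that 30.2% of the level remained. Tprgl, a gene for a synaptic vesicle protein of the p63-regulated family, was the most abundant of the 6, with means of 10308 in +129/+Bl6 and 3552 in Df/+Bl6 (log2 -1.54, 34.5% left). Prdm16 had means of 1691 and 629.6 in the same order (log2 -1.43), leaving 37.2%. These were also the 3 genes with the least left, and they are near neighbours, in the order Tprgl, Megf6 and Prdm16.

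Nphp4, the most centromere-proximal of the 10, had means of 864 in +129/+Bl6 and 364 in Df/+Bl6 (log2 -1.25, 42.1% left). The remaining 2 called genes lost close to what the absence of one of 2 equal copies takes away, a log2 fold change of -1. Lrrc47, which encodes a leucine-rich repeat protein, had means of 4123 and 2134 (log2 -0.95, 51.8% left). Pank4 had means of 2147 and 1143 (log2 -0.91, 53.3% left). Thus 4 of the 6 fell by more than a log2 of 1 and 2 by less, and without values per line it cannot be said which of them differ from -1 beyond the spread between lines.

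**Figure D1:**
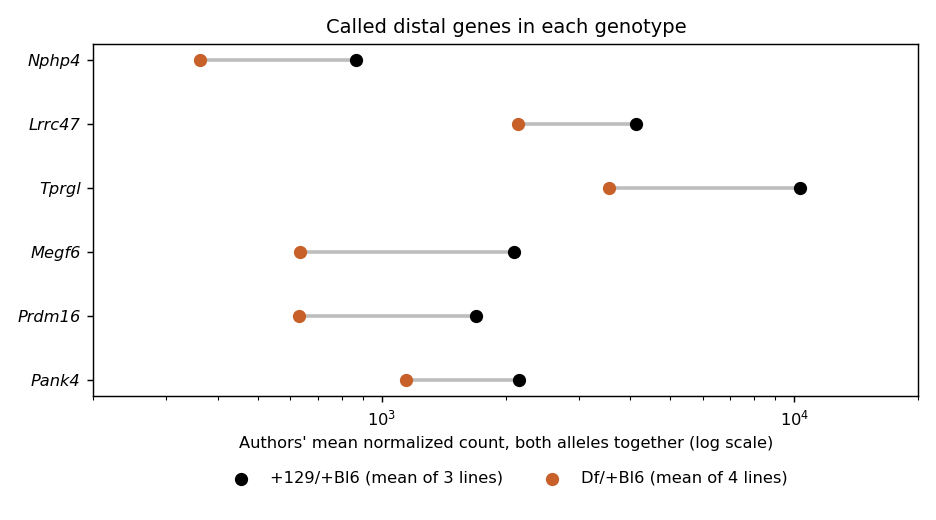
Authors' mean normalized counts of the 6 called distal genes for both alleles together, on a logarithmic axis, with black points for the mean of the 3 +129/+Bl6 lines and orange points for the mean of the 4 Df/+Bl6 lines. The orange point lies left of the black point for each gene, and the gap is widest for Megf6 (log2 -1.73) and narrowest for Pank4 (log2 -0.91).

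The levels of different genes can be set side by side only per length. Divided by the longest annotated transcript, the +129/+Bl6 level of Tprgl was 5979 normalized counts per kb, that of Lrrc47 1189 and that of Pank4 793. Megf6 followed at 305, Prdm16 at 196 and Nphp4 at 172 normalized counts per kb. Tprgl thus stood above the others, whereas Prdm16 and Nphp4 had the lowest levels of the 6, with 73.1 and 72.3 normalized counts per kb in Df/+Bl6. Since no spread between lines is given, neighbours in this order cannot be said to differ. The depth of the falls did not follow the level: Lrrc47 and Pank4, next in level after Tprgl, fell least.

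Among all 550 genes called lower in the combined comparison, the fall of Megf6 ranked 44th, that of Tprgl 57th and that of Prdm16 72nd. Nphp4 ranked 106th, Lrrc47 199th and Pank4 216th. The list of called genes ends at falls of about -0.42 on the log2 scale. For genes at levels like that of Pank4, with +129/+Bl6 means between 1000 and 3000, the smallest fall listed was -0.53.

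The 129S5 allele is the one deleted in Df/+Bl6, and its reads check the labels. Of the 10 genes, 5 were called for this allele, again all lower in Df/+Bl6, where 1.65% of the genes listed in the combined comparison were called for it. Pank4 had 129S5 means of 141 in +129/+Bl6 and 0.13 in Df/+Bl6, so that 0.089% of the signal remained. Megf6 had 164 and 0.56, leaving 0.34%, and Nphp4 had 33.3 and 0.13, leaving 0.38%. Prdm16 had 92.8 and 0.44, which left 0.47%. Tprgl had 1450 and 7.03, which left 0.48%. In all 5 genes, less than 0.5% of the 129S5 signal was left in the deletion lines.

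These ratios correspond to log2 fold changes between -10.1 and -7.69, with a median of -8.05. The other 16 genes between Rere and Ski that were called for this allele and had a Df/+Bl6 mean above 0 ran from -9.34 to -4.66, with a median of -6.82. One more, Rnf207, is listed at 0 in Df/+Bl6. The Df/+Bl6 means of Pank4, Nphp4, Prdm16 and Megf6 were below 1 normalized count, so that the size of their ratios rests on very little signal. Lrrc47 was called only in the combined comparison, so the allele that lost its RNA is not shown by these tables. The called neighbours Wdr8, 1190007F08Rik, Arhgef16, 2810405K02Rik and A430005L14Rik likewise had no allelic call.

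The intact C57BL/6J allele gave calls for 2 of the 10 genes, Tprgl and Megf6, and both were lower in Df/+Bl6. Of the genes listed in the combined comparison, 2.09% were called for this allele. Tprgl had C57BL/6J means of 1984 in +129/+Bl6 and 623 in Df/+Bl6 (log2 -1.67, 31.4% left). Megf6 had means of 358 and 110 (log2 -1.70, 30.9% left). The signal assigned to the C57BL/6J copy of these 2 genes was thus lower in Df/+Bl6. Tprgl kept 34.5% of its combined level, more than the 31.4% for C57BL/6J or the 0.48% for 129S5. Megf6 kept 30.2% combined, 30.9% for C57BL/6J and 0.34% for 129S5. These shares come from separately normalized tables. The paper describes a mapping bias between the alleles. Whether some reads assigned to C57BL/6J came from the 129S5 copy was not tested, so a fall of the intact copy itself is not established.

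Between Rere and Ski, 12 genes were called for the C57BL/6J allele, and Megf6 and Tprgl had the 2 deepest falls of them. The other 10 ran from -1.50 (Plekhg5, a guanine nucleotide exchange factor) to -0.61, with a median of -0.82. In the whole genome Megf6 ranked 10th and Tprgl 11th of 145 genes called lower for this allele. On the log2 scale the C57BL/6J change minus the combined one was 0.029 for Megf6 and -0.13 for Tprgl. Its median over the genes between Rere and Ski was 0.060. As the tables were normalized separately, these gaps cannot be read as shares of an allele. Prdm16, Nphp4 and Pank4 had no call for the C57BL/6J allele, and whether their intact copies differed from those of Tprgl and Megf6 was not tested.

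**Figure D2:**
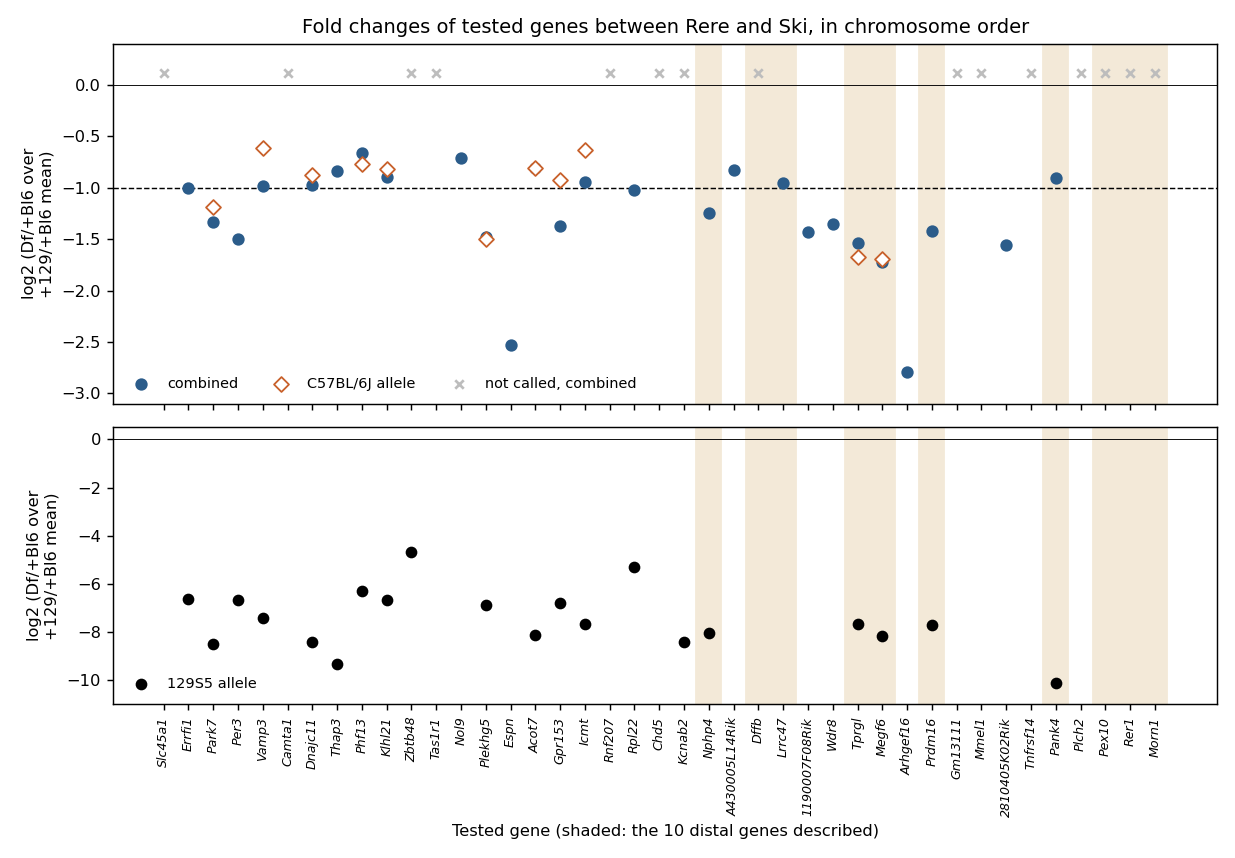
Fold changes of tested genes between Rere and Ski in chromosome order, 1 of them left out, as log2 of the Df/+Bl6 over the +129/+Bl6 mean, with the 10 distal genes shaded. Upper plot, combined (blue points) and C57BL/6J allele (orange diamonds), with grey crosses for genes not called in the combined comparison and a dashed line at -1. Lower plot, 129S5 allele, without Rnf207, which is listed at 0. The diamonds of Tprgl and Megf6 lie lowest, at -1.67 and -1.70, and the 4 genes after Pank4 carry crosses.

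The positions of the genes place these falls on the chromosome. On mouse genome build NCBI37 (GENCODE vM1 annotation), Nphp4 (ENSMUSG00000039577) lies at chr4:151850815-151937292 on the plus strand, and its start overlaps the opposite-strand gene Kcnab2 by 1166 bp. Kcnab2, a potassium channel beta subunit, was not called in the combined comparison but was called for the 129S5 allele, with a log2 fold change of -8.43. After Nphp4 follow 1.39 Mb that hold 9 annotated genes, of which 0 are on the list of genes measured. The dense stretch then begins with A430005L14Rik (log2 -0.83) and Dffb.

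Dffb (ENSMUSG00000029027, chr4:153338558-153349235, minus strand) was on the list of measured genes and was called in none of the comparisons. Dffb lies between Nphp4 and Tprgl, which lost their 129S5 signal, and is thus inside the deleted interval, so that the absence of a call is no measure of its dose. Lrrc47 (ENSMUSG00000029028, chr4:153385840-153395622, plus strand) overlaps the opposite-strand noncoding RNA 1190007F08Rik by 926 bp. That RNA had a log2 fold change of -1.43, against -0.95 for Lrrc47.

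Tprgl (ENSMUSG00000029030, chr4:153531594-153534775, minus strand) lies whole, over 3182 bp, inside the span of Wdr8 on the opposite strand. Wdr8, which encodes a WD repeat protein of the centrosome, had a log2 fold change of -1.36, against -1.54 for Tprgl. The libraries were stranded, but the sources used here do not state whether the strand was used in counting. The authors kept only reads with a single best mapping location, so that reads fitting both genes of an overlapping pair may have been left out. Megf6 (ENSMUSG00000057751, chr4:153544839-153649822, plus strand) starts 10.1 kb from Tprgl and spans 37 exons in its longest transcript. Arhgef16, a guanine nucleotide exchange factor gene 2.77 kb beyond Megf6, had the deepest combined fall between Rere and Ski, from a mean of 127 to 18.3 (log2 -2.79).

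Prdm16 (ENSMUSG00000039410, chr4:153690234-154010982, minus strand) is the longest of the 10, spanning 321 kb. Its neighbours on the list of measured genes are Arhgef16, which was called, and Gm13111, which was not. Between Prdm16 and Pank4 the measured genes are Gm13111, Mmel1 (a membrane metallo-endopeptidase), 2810405K02Rik and Tnfrsf14 (a TNF receptor family member). Of these, 2810405K02Rik fell by 1.56 on the log2 scale and the other three were not called. Pank4 (ENSMUSG00000029056, chr4:154338232-154355047, plus strand) is the last called gene before Ski.

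From Nphp4 to Pank4, 12 of 16 measured genes were called, all lower, which is 75% against 3.54% over all genes. Their median combined log2 fold change was -1.39. Of the 22 measured genes between Rere and Nphp4, 15 were called, with a median of -0.99. A log2 fold change below -1 was seen for 8 of the 12 and for 7 of the 15. These medians describe the called genes alone, and the difference between these stretches was not tested.

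No measured gene was called between Pank4 and Ski. Plch2, a phospholipase C gene whose 3′ end lies 2177 bp from that of Pank4, was measured and not called. Pex10 (ENSMUSG00000029047, chr4:154441125-154446542, plus strand), Rer1 (ENSMUSG00000029048, chr4:154448219-154460491, minus strand) and Morn1 (ENSMUSG00000029049, chr4:154460686-154519614, plus strand), a gene of MORN repeat proteins, were measured in the combined comparison and not called there. They had no allelic call either, and whether they were tested for each allele is not known. Thus 0 of the 4 measured genes between Pank4 and Ski were called, combined or by allele. In the combined comparison 8.67% of all genes were called, but from Nphp4 to Pank4 it was 12 of 16 measured genes. Whether the absence of a call among these 4 genes differs from either share was not tested. Ski (chr4:154528184-154596701), 173 kb past the end of Pank4, was not called either, nor was Rere (chr4:149655755-149996075), which borders the interval on the other side.

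The stretch without calls went on beyond Ski. Counting from Plch2, 26 measured genes in a row were not called, over 0.859 Mb, up to Mxra8, a matrix remodelling gene with a combined log2 fold change of -0.56. Mxra8 was the only one of 47 measured genes between Pank4 and the chromosome end to be called, 2.13% beside 8.67% over all genes. It had calls for both alleles, at -0.71 for 129S5 and -0.55 for C57BL/6J. Its 129S5 allele kept 60.9% of its signal, against less than 0.5% in Pank4. Between the first and the last called gene of the interval, Errfi1 and Pank4, the longest run of measured genes without a call in the combined comparison was 2, seen at Zbtb48 and Tas1r1, at Chd5 and Kcnab2, and at Gm13111 and Mmel1.

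The called genes from Errfi1 to Pank4 span 4.13 Mb, and the annotation leaves 4.53 Mb between the end of Rere and the start of Ski. The labels give a deletion of 4.3 Mb. The last gene with a loss of 129S5 signal was Pank4 and the first measured gene past it without any call was Plch2. Of the measured genes between Errfi1 and Pank4, 10 were without a combined call. For 3 of these, Zbtb48 (log2 -4.66), Kcnab2 (log2 -8.43) and Rnf207 (listed at 0 in Df/+Bl6), the 129S5 allele was called lower, as it was for none of the 4 measured genes between Pank4 and Ski, and the other 7 were in none of the 3 tables. As genes without any call thus lie on both sides of Pank4, the calls alone place the end of the dosage loss no nearer than Pank4. The paper names a stretch that borders the deletion on this side, with rounded positions. Read on NCBI37, Pex10, Rer1 and Morn1 start past the beginning of that stretch and so lie outside the deletion. Plch2 spans that rounded position, so its place is not settled.

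**Figure D3:**
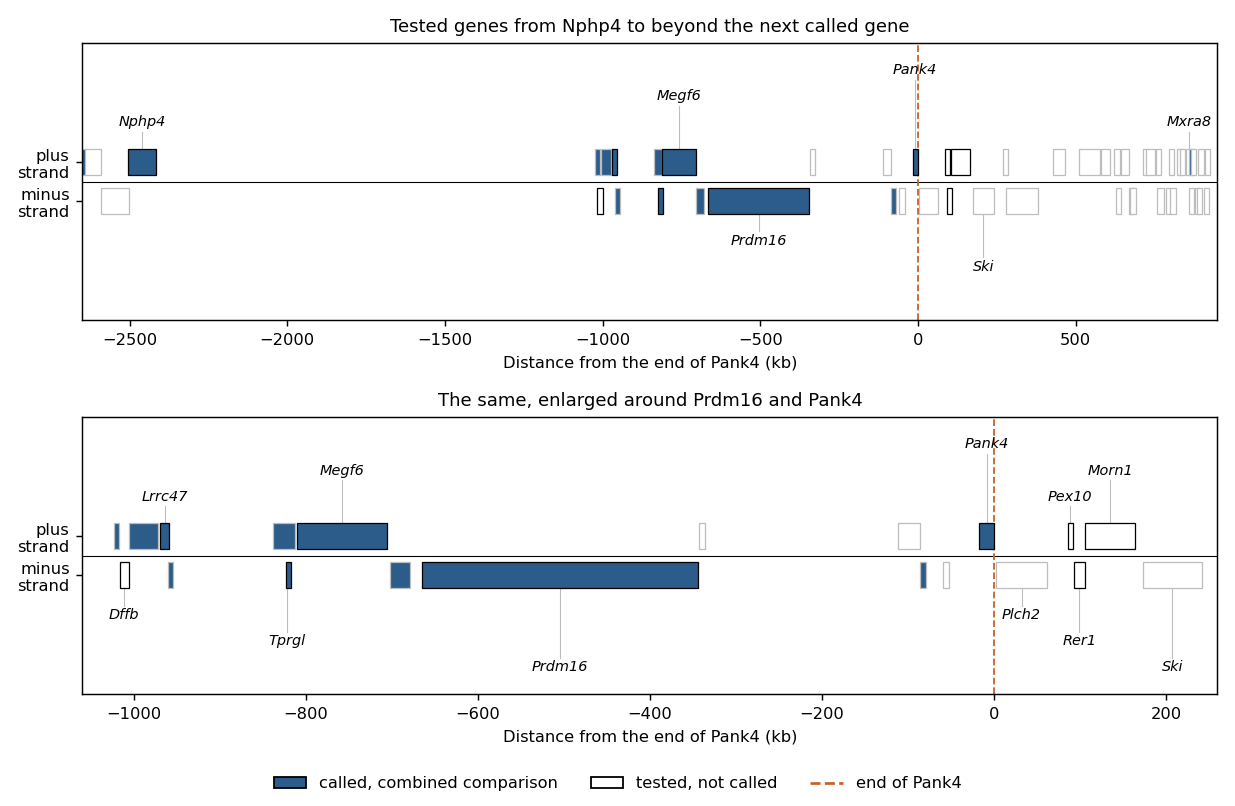
Map of the measured genes around the deletion's far end, as distance in kb from the end of Pank4 (dashed line), with plus-strand genes above and minus-strand genes below the axis. Blue boxes are genes called in the combined comparison, white boxes were measured and not called, black outlines mark the 10 distal genes, and the narrowest boxes are drawn wider than scale. Blue boxes reach up to Pank4, and the next one is Mxra8, 859 kb away.

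The sequences before the start sites are shown for Pank4, the last called gene before Ski, and for Megf6, the deepest fall. Those of Pex10, Rer1 and Morn1, past Pank4 and without a call, are given too. They are RefSeq promoter windows on GRCm38.p6, a later build than the gene positions above, cut to the bases before the annotated gene, on the plus strand. Capitals mark matches on either strand to CCAAT (the CCAAT box), GGGCGG (the GC box), CCGGAAG (an ETS-type motif) and TATAAA (the TATA box). Rer1 and Morn1 run head to head, 195 bp apart on NCBI37, and share one window of 205 bases.
Megf6, chr4:154170463-154170703: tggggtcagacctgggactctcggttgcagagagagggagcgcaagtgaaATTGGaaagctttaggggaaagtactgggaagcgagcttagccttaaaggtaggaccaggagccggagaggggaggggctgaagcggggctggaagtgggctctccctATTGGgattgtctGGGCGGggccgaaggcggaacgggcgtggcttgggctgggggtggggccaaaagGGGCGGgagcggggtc
Pank4, chr4:154963873-154964122: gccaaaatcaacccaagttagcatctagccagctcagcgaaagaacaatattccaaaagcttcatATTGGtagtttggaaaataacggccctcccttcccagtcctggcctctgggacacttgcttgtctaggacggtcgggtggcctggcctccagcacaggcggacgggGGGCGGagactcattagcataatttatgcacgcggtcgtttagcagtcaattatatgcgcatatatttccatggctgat
Pex10, chr4:155066780-155067029: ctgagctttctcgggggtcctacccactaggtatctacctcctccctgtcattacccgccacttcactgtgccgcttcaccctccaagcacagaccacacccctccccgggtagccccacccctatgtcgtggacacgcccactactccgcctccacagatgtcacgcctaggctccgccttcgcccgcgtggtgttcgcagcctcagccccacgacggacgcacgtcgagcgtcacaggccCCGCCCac
Rer1 and Morn1, chr4:155086372-155086576: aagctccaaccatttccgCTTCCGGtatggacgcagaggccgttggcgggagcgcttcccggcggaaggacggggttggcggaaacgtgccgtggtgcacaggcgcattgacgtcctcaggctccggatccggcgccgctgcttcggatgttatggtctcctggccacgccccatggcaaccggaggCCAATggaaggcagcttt

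In these stretches Megf6 held 2 CCAAT and 2 GC boxes, Pank4 held 1 of each, Pex10 held 1 GC box, and the Rer1 and Morn1 stretch held 1 CCAAT box and 1 ETS-type motif. In the full windows, 250 bases before and 50 after each start, all 10 genes had a GC box in at least 1 window, which 35.7% of all 32851 windows hold. CCAAT occurred in 7 of the 10 (37.4% of all windows), CCGGAAG in 4 (8.86%) and TATAAA in 0 (13.6%). Some genes have more than 1 window, 13 in all for the 10, so counts per gene and shares per window are not like measures. The windows of Rer1 and Morn1 overlap, so that a motif there counts for both genes. The 13 windows had between 7 and 34 CpG dinucleotides, and 12 of them were above the median of 7 over all windows. A GC box and many CpGs were thus found on both sides of Pank4, in genes with and without a call, and a match is no proof of a bound site.

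Genes that work with the 10 were counted from lists set by pathway, which were drawn up with earlier results of these data known. In the list of Prdm16 partners and brown fat genes, 18 of 25 genes were measured and Prdm16 was the only one called, beside 8.67% of all genes. Among those measured and not called were its partners Ehmt1, Ctbp1, Ctbp2 and Cebpb, and the fat regulators Ppargc1a and Pparg. Ucp1, Cidea, Cox8b and Elovl3, which mark brown fat, were not on the list of measured genes. In the PRDM family 11 of 15 were measured, and again Prdm16 alone was called. With 1 gene each, these shares are near that over all genes. These lists share Prdm16 and Mecom.

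For the ciliary transition zone all 25 listed genes were measured, 1 was called lower (Nphp4) and 2 were called higher. Cep290, a centrosomal protein of the transition zone, rose from 966 to 2058 (log2 1.09), and Iqcb1, also known as nephrocystin-5, rose from 484 to 862 (log2 0.83). Over all genes 8.67% were called, 3.54% lower and 5.13% higher. For coenzyme A synthesis 10 of 11 were measured and Pank4 alone was called, so that Pank1, Pank2 and Pank3, the active kinases, had no call. For peroxisome biogenesis 16 of 17 were measured and 0 were called in the combined comparison, Pex10 among them. Pex6, an ATPase of peroxisomal protein import on chromosome 17, had a call for the 129S5 allele alone, with a log2 fold change of -0.84.

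For apoptotic DNA fragmentation, the pathway of Dffb, 15 of 17 were measured and 4 were called, all higher in Df/+Bl6, beside 5.13% of all genes. Top2a, the topoisomerase of dividing cells, rose from 10402 to 28791 (log2 1.47), and Hmgb2, a chromatin protein, from 2578 to 5696 (log2 1.14). Hmgb1, its relative, rose by 0.69 and Top2b by 0.56 on the log2 scale. All 4 are chromatin proteins with other roles besides apoptosis, and the nuclease Dffb, its inhibitor Dffa and the caspase Casp9 were not called.

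The next counts stand beside 8.67% of all genes called and 3.54% called lower. In the family with multiple EGF-like domains all 10 listed genes were measured and 2 were called lower, Megf6 among them. For retrieval from the Golgi to the endoplasmic reticulum, where Rer1 works, all 19 were measured and 1 was called, the coat protein gene Cope (log2 -0.51). For Ski and TGF beta signalling all 18 were measured and 1 was called, the receptor gene Tgfbr2 (log2 -0.84), which also had a C57BL/6J call at -0.83. With 1 called gene each, the lists of Rer1 and Ski held 5.26% and 5.56% called, near the share over all genes. None of the 9 lists was tested as a set.

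**Figure D4:**
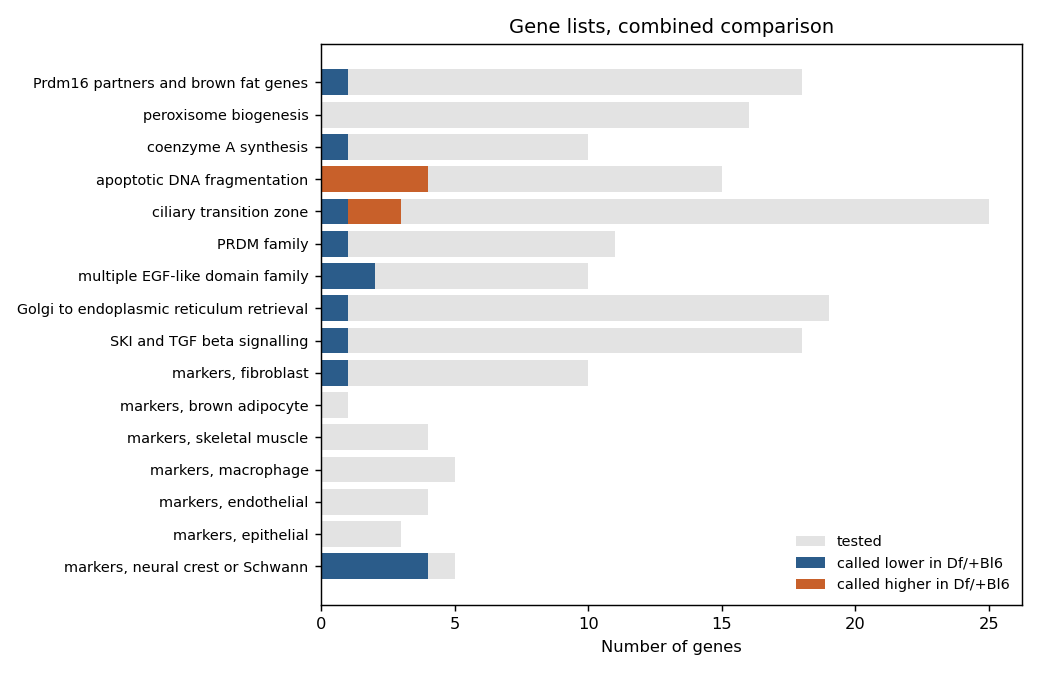
Number of genes measured (grey), called lower (blue) and called higher (orange) in Df/+Bl6 in the combined comparison, for the 9 pathway lists and the 7 lists of cell type markers. The lists holding Prdm16, Pank4 or Nphp4 have these as their only blue gene, and the neural crest or Schwann markers have 4 blue genes of 5.

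The cell type markers bear on what these cultures held, and their counts stand beside 8.67% of all genes called and 3.54% called lower. All 10 fibroblast markers were measured, and 1 of them, Fn1 (fibronectin), was called, lower in Df/+Bl6 at a log2 fold change of -0.69. None was called of 5 macrophage, 4 endothelial, 4 skeletal muscle and 3 epithelial markers measured, nor the 1 brown adipocyte marker measured, Dio2. Of 5 neural crest or Schwann cell markers, 4 were called and lower, among them Foxd3 (log2 -1.54), Sox10 (-1.53) and Erbb3 (-1.09). Their summed means were 930 normalized counts in +129/+Bl6 and 371 in Df/+Bl6. In the combined comparison these markers ran from -1.54 to -1.09, beside -1.73 to -1.43 for Megf6, Tprgl and Prdm16. For the C57BL/6J allele Megf6 had -1.70 and Tprgl -1.67, and Prdm16 had no call. The part of cells with these markers in the falls of the distal genes was not tested.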

How the data were processed

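Stranded polyA+ libraries of 7 primary MEF lines (4 Df/+Bl6, 3 +129/+Bl6) were sequenced from both ends. The authors aligned reads with GSNAP to the Ensembl 72 (GRCm38/mm10) C57BL/6J transcriptome and a 129S5 version, excluded genes with low allelic read numbers, and tested with DESeq. The deposited signal values are the authors' mean normalized counts per genotype. Deposited fold changes and p-values of the authors' tests were not used; fold changes were recomputed from the means (Python 3 with pandas; no pseudocount), and the formula was tested on simulated data. A further 9 columns of normalized counts carry no sample names and were not used, beyond the gene identifiers, which gave the 15531 genes measured. No test over lines was therefore run, and depth is unknown. Members and gene lists were chosen with earlier results of these data known. Genes named are the 10 members, Rere, Ski, every gene between Pank4 and Ski and every called gene of a list; other genes of the interval and uncalled list genes were named after their values were seen. Some genes of the interval and of the lists are not reported here by name. Positions come from GENCODE vM1 and sequences from RefSeq. Lines from separate embryos were taken as replicates, as labelled. Alternatives were pseudocounts of 1 and 10, level minimums of 100 and 1000, and placed identifiers alone.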

Additional observations from a re-analysis of the deposited data

How the results depend on the processing

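The median combined log2 fold change of the 6 called genes was -1.34 with no pseudocount and -1.32 with 10 added to both means. For the 129S5 allele the median moved from -8.05 to -6.72 with 1 added and to -3.90 with 10 added, since the Df/+Bl6 means there lie near 0. For the C57BL/6J allele it moved from -1.68 to -1.63 with 10 added. All 26 single values recomputed with a pseudocount stayed negative. A minimum of 100 for the +129/+Bl6 mean left 6 called genes and one of 1000 left 5. The share of genes called was 8.67% over all identifiers and 8.82% over those placed on a chromosome, and 0 genes between Pank4 and Ski were called by either rule of placement. Leaving out lines, a count test and another filter were not run, as the columns of values carry no sample names. No paired analysis was possible because the columns carry no line numbers and the numbers of the lines pair no samples. The spread between lines and the depth of each library are unknown here, which limits what can be said of genes without a call.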
